A study of Mus musculus with 5 samples.

Results

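The genes described here are 10 antioxidant and metal-binding genes of the mouse hippocampus, picked by symbol from the 55385 genes of the count tables: Srxn1, Txnrd1, Txnip, Hmox1, Nqo1, Gclc, Gclm, Slc7a11, Mt1 and Mt2. All 10 were found, and all 10 passed the filter on low counts that left 19768 genes for testing. The study followed gene expression after seizures provoked by kainic acid, an agonist of kainate-type glutamate receptors that drives synchronous firing in the hippocampus. Total RNA from dissected hippocampi of male C57/bl6 mice aged 3 months was sequenced in 5 libraries: 1 untreated control, 1 taken 1 h after seizure onset, 2 taken at 4 h (library 1 and library 2) and 1 taken at 8 h. The seizure groups had received kainic acid at 20 mg/kg into the peritoneum, and the study kept only animals that reached continuous rearing and falling, so milder responses are not represented. The control is labelled untreated, and no vehicle-injected or time-matched control library was analysed here, so the injection and the seizure cannot be told apart. Whether 1 animal or a pool gave each library is not stated, and the p-values below rest on the spread of the 4 h pair alone.

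Cells meet peroxides and reactive electrophiles with several linked systems. The transcription factor NRF2, which KEAP1 marks for degradation in unstressed cells, pairs with small MAF proteins on antioxidant response elements and is displaced there by BACH1. Its classical targets repair oxidized peroxiredoxins (Srxn1), reduce thioredoxin (Txnrd1), break down heme (Hmox1), reduce quinones (Nqo1), take up cystine (Slc7a11) and build glutathione (Gclc, Gclm). Metallothioneins are small cysteine-rich proteins that bind zinc and copper. Mt1 and Mt2 are inducible by metals through MTF1 and by glucocorticoids, and in brain they are expressed mainly by astrocytes, while Mt3 is a brain form. Txnip works the other way from the rest: it binds thioredoxin and blocks it.

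The coding sequences of both metallothionein members are shown because the cysteine codons, in capitals, are what the proteins are made for, and because 2 such similar messages could have been confused in counting. They were read 5′ to 3′ from the GENCODE M21 transcripts (GRCm38).
Mt1: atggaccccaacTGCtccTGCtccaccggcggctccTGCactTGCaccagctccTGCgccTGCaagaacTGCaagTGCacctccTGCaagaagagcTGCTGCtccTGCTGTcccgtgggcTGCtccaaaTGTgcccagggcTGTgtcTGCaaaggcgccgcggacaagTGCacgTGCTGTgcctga
Mt2: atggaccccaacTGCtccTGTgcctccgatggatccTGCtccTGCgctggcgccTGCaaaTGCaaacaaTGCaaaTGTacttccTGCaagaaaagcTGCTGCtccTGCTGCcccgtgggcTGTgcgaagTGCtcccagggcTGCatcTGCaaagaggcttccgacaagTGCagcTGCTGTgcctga
Each has 186 bases with the stop codon, and 20 of the 61 codons before it encode cysteine, at 20 shared positions. The sequences were identical at 79.57% of the bases, but the longest identical run was only 20 bases, and no stretch of 50 bases of either gene occurred in a transcript of another gene. Paired reads of the 2 messages were therefore separable by sequence. Of the other members, only Gclm (3.92% of its stretches of 50 bases) and Slc7a11 (0.618%) shared such stretches with other genes.

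Txnrd1 encodes a selenoprotein, in which a UGA codon near the end is read as selenocysteine. The last 30 coding bases of Txnrd1-201 show it, with the TGA in capitals.
Txnrd1: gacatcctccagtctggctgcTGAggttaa
This TGA stands in frame at codon 498, ahead of the terminal stop codon. Selenocysteine incorporation happens in translation and is not visible in read counts.

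Upstream sequences are shown for the members with the highest counts at 4 h, Srxn1, Mt2 and Mt1. They are the 250 bases before the RefSeq start (build GRCm38.p6, plus strand) at chr2:152105274-152105523, chr8:94172368-94172617 and chr8:94178839-94179088. Capitals mark matches on either strand: the AP-1 letters (TGANTCA) in Srxn1 and Mt2, the antioxidant response element core (TGACNNNGC) in Mt2, and metal response element cores (TGCACNC or TGCGCNC) in all 3.
Srxn1: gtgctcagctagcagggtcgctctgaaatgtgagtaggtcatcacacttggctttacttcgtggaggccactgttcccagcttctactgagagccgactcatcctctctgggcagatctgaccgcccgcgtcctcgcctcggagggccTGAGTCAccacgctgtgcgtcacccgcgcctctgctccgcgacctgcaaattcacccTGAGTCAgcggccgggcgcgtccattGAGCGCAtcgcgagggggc
Mt2: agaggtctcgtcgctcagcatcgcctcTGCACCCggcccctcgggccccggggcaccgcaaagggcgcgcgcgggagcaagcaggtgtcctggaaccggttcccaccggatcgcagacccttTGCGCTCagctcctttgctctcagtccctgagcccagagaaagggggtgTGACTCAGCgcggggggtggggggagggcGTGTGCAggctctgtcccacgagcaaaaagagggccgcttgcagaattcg
Mt1: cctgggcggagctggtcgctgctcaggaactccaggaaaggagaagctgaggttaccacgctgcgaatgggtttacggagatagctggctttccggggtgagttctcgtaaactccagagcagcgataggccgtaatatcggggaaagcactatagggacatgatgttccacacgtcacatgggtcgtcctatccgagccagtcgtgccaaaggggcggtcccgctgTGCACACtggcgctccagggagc
The Srxn1 window held 2 AP-1 matches, 102 and 45 bases before the start (positions -102 and -45, counted to the first base of the match with the start as 0), and its antioxidant response element match lay past the start at +28. It also held a metal response element match at -19. In Mt2, a single stretch at -79 matched both the AP-1 and the antioxidant response element letters, and metal response element letters began at -223, -128 and -50 and, past the start, at +4. Mt1 carried a metal response element match at -23 and 2 more past the start. Neither of the other motifs occurred in the Mt1 window, which ended 50 bases past the RefSeq start. The Mt1 coding sequence begins further downstream, at chr8:94179311, and the bases between this position and the window were not searched. Whether Mt1 lacks these motifs outside the window can therefore not be read from the search. Windows from 250 bases before to 50 after the start were found for 8 of the 10 members, and not for Hmox1 and Gclc. Among the rest, Gclm had an antioxidant response element match at -134, and Txnrd1 had one at -92 in the second of its windows, while Nqo1, Slc7a11 and Txnip had none in these windows. Metal response element letters also occurred in Gclm, at -138, -72 and +27, and in Txnip at -208. Over all 32851 RefSeq windows of this length, 12.39% held the antioxidant response element core, 7.81% the AP-1 letters, and 12.59% and 15.39% the A and G forms of the metal response element core. The E-box letters CACGTG, searched as well, occurred in 7.15% of all windows and in none of these members. Such letter matches describe the sequence and were not tested for binding.

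Levels below are counts divided by the library size after TMM scaling, a correction for library composition (normalized CPM), with exact Poisson 95% intervals that cover counting error only. Gene counts per library ranged from 16612225 to 19109204, so the precision of single genes was similar in all. Between the libraries of the 4 h pair, 1984 of the 19768 tested genes differed by at least 2-fold. Library 1 stood apart in the choroid plexus, the epithelium that adjoins the hippocampus and secretes cerebrospinal fluid: 5 plexus markers (Ttr, Folr1, Kl, Aqp1 and Otx2) summed to 27.3 normalized CPM there against 1658 to 4191 in the other libraries, with none at 0. It also had the most reads on no gene (33.1% against 24.7% to 30.9%) and the highest hemoglobin-gene and Alas2 level (237 against 113 to 182 summed normalized CPM). Hippocampal neuron markers such as Slc17a7 and Wfs1 were present in every library, with 7 neuron markers summing to 3482 to 4220. Single neuron markers moved apart at 4 h: named after their values were seen, Prox1 (dentate granule cells) was at 2.86 and 1.99 times the control in libraries 1 and 2, Gad1 (inhibitory neurons) at 2.01 and 1.48, and Rbfox3 at 0.688 and 0.692.

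Across the whole group, 4 members stood at least 2-fold above the control in both 4 h libraries, namely Srxn1, Hmox1, Mt2 and Mt1, and 3 of these, all but Mt1, still did at 8 h. At 1 h no member was 2-fold away from the control in either direction. Among all tested genes, 4.96% were at least 2-fold higher in both libraries at 4 h and 1.51% lower. At 1 h the corresponding shares were 5.41% and 3.8%, and after 8 h they were 6.79% and 3.37%, each resting on a single library. No member was at least 2-fold lower at any time. The median log2 fold change of the 10 members was 0.25 after 1 h, 0.54 after 4 h and 0.09 after 8 h, beside medians of all tested genes within 0.01 of 0.

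None of these differences passed the edgeR quasi-likelihood test with Benjamini-Hochberg adjustment over all tested genes. That test called 0 genes at 1 h and 8 h (0.0%) and 1 gene at 4 h (0.00506%), ETV3L, which is no member. The same held between time points, with 1 gene (ETV3L again, 0.00506%) at 4 h against 1 h and 0 (0.0%) at 8 h against 4 h. At an unadjusted p below 0.05, 478 genes (2.42%) passed at 1 h, 2291 (11.6%) after 4 h and 892 (4.51%) after 8 h, with 1569 at 4 h against 1 h and 1726 at 8 h against 4 h. Members among them counted 2 after 1 h, 5 after 4 h and 4 after 8 h. DESeq2 on the same genes called 233 genes at 4 h (1.18%), and Srxn1, Hmox1, Mt1 and Mt2 were 4 of them. They were called likewise in 3 edgeR alternatives: with scaling by library size alone (1.2% of genes called), with no filter on low counts (3.97%) and with an assumed coefficient of variation of 0.2 (4.63%). They were not called with median-of-ratios scaling, with at least 10 counts in every library, with limma-voom or with a coefficient of variation of 0.4. A smaller prior count changes the log2 fold changes but not the test, so it was no separate check of the calls. Whether these 4 genes are called at 4 h thus depended on the scaling, the filter and the estimate of spread, for which the design offers a single pair. The comparisons at 1 h, 4 h and 8 h share the one control library.

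**Figure D1:**
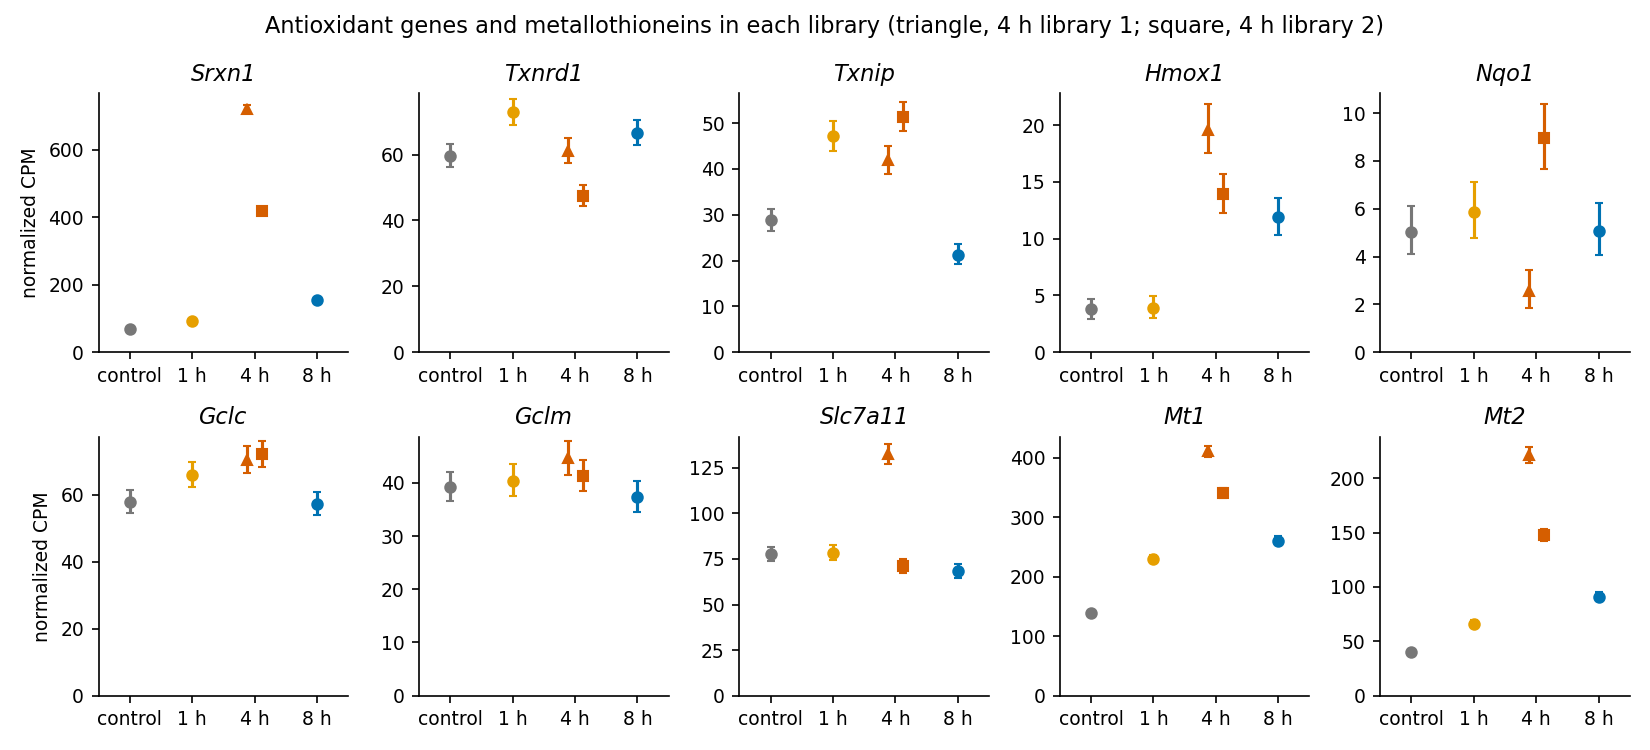
Normalized CPM (y axes, each from 0) of the 10 genes in the control and the 1 h, 4 h and 8 h libraries, with 1 point per library and bars for the exact Poisson 95% interval. Srxn1, Hmox1, Mt1 and Mt2 were higher in both 4 h libraries than in any other, while the 4 h libraries of Nqo1 and Slc7a11 fell on opposite sides of the control.

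Srxn1 encodes sulfiredoxin, which uses ATP to rescue peroxiredoxins inactivated by hyperoxidation, and it showed the largest excess over the control of the 10 genes. The gene lies at chr2:152105516-152111376 on the plus strand of GRCm38. Its level was 67.2 normalized CPM in the control (63.7 to 70.9), 91.8 at 1 h, 720.5 in library 1, 418.9 in library 2 and 154.6 after 8 h. All 5 intervals were separate, and the order from low to high was control, 1 h, 8 h and then the 4 h pair. Relative to the control, the ratio was 1.37 at 1 h, 10.7 in library 1, 6.23 in library 2 and 2.30 after 8 h. The edgeR log2 fold change at 4 h was 3.08 ± 0.39 (SE), with an adjusted p of 0.242 from the quasi-likelihood test, and across alternatives the adjusted p ran from 2.31e-39 to 0.327. Without library 1 it was 2.64, and without library 2 it was 3.42. Of the markers of other cell types, 5 of 5 for blood, 6 of 7 for astrocytes and 3 of 7 for neurons were also highest in library 1. The same was true of 2 of 5 for endothelium and 1 of 6 for microglia. Below the control in library 1 were 4 neuron, 2 endothelial and 5 microglial markers, against 4, 3 and 5 in library 2. The granule-cell marker Prox1 had the same order of libraries as Srxn1. Their part in the Srxn1 values was not tested. Between 8 h and 4 h the difference was -1.88 ± 0.36 on the log2 scale, which the quasi-likelihood test did not call (adjusted p = 0.463) and DESeq2 did (0.668% of genes called). DESeq2 also called Srxn1, Hmox1 and Mt2 at 4 h against 1 h (0.521% of genes called), with quasi-likelihood adjusted p values of 0.39, 0.39 and 0.429.

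The other enzymes of the thioredoxin system were closer to their control levels. Txnrd1, the cytosolic reductase of thioredoxin (chr10:82833951-82897712, plus strand), had 59.6 normalized CPM in the control, 72.8 at 1 h, 61.1 in library 1, 47.5 in library 2 and 66.7 after 8 h. One 4 h library was thus level with the control and the other 0.797 of it (0.730 to 0.870). The fitted log2 fold changes of Txnrd1 were 0.29 ± 0.25, -0.13 ± 0.22 and 0.16 ± 0.25 at 1, 4 and 8 h. Of the 12 further thioredoxin and peroxiredoxin genes examined, among them Txn1 (thioredoxin itself), Txnrd2, 6 peroxiredoxins and 3 sestrins, none was 2-fold from the control in any library, and the list's median log2 fold change was -0.05 at 4 h. In the edgeR quasi-likelihood test 2 of them had an unadjusted p below 0.05 at 4 h. These were the sestrins Sesn1 (log2 fold change -0.79, adjusted p = 0.329) and Sesn2 (0.80, adjusted p = 0.363), named after their values were seen. Txn1 stayed between 38.7 and 42.6 normalized CPM in all libraries.

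Txnip (chr3:96557957-96561883, plus strand) encodes the inhibitor of thioredoxin, an arrestin-like protein that also limits glucose uptake. It had 28.7 normalized CPM in the control, 47.1 at 1 h, 41.9 in library 1, 51.4 in library 2 and 21.3 after 8 h. The 1 h and 4 h libraries were above the control and the 8 h library was below it, with separate intervals. Ratios to the control were 1.64 at 1 h, 1.46 in library 1, 1.79 in library 2 and 0.740 (0.648 to 0.845) after 8 h. Log2 fold changes were 0.71 ± 0.26, 0.70 ± 0.23 and -0.43 ± 0.26, and the adjusted p at 4 h was 0.378 in the edgeR quasi-likelihood test. From 4 h to 8 h Txnip differed by -1.13 ± 0.24 on the log2 scale (adjusted p = 0.463 in the same test). With no filter on low counts edgeR called Txnip in this comparison, as it did Srxn1 and Mt2 (2.92% of genes called). Oligodendrocyte markers ran in the same order of libraries as Txnip: the sum of 5 markers was 2567 normalized CPM at 8 h, 2819 in the control, 3249 in library 1, 3446 at 1 h and 4155 in library 2, and 4 of the 5 followed that order singly, with none at 0. The part of these cells in the Txnip values was not tested, and in whole tissue more cells of a type and more RNA per cell cannot be told apart. In the annotation, 19.4% of the exon length of Txnip lies under exons of Gm15441 on the opposite strand, which had 0 to 3 counts in these libraries.

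**Figure D2:**
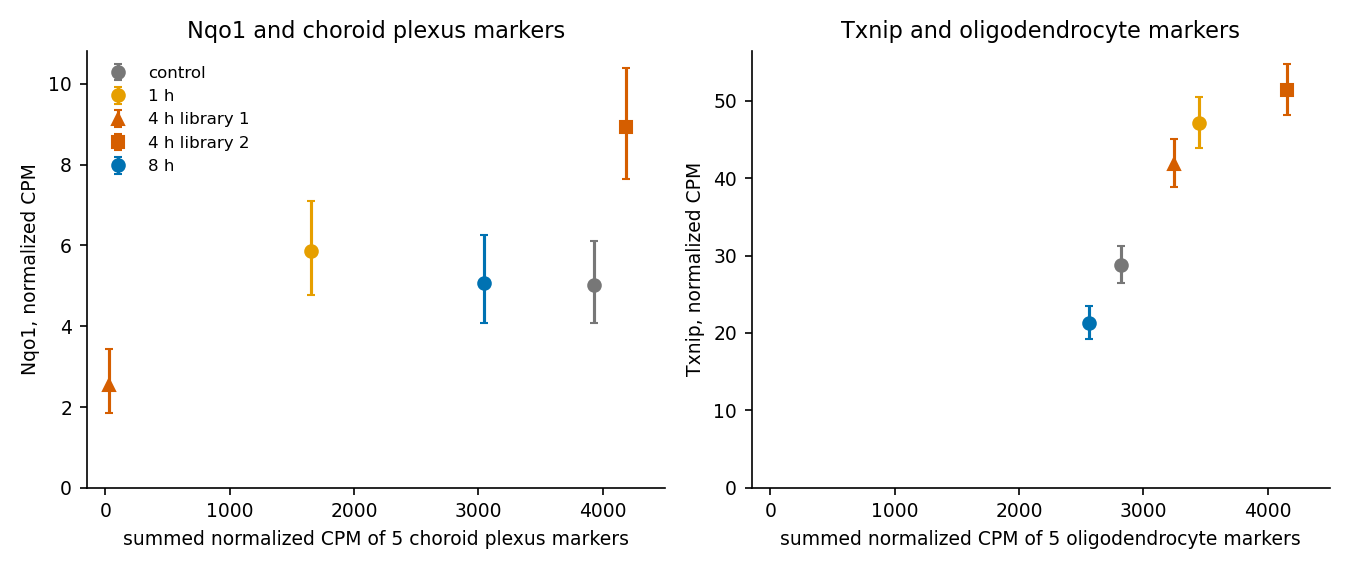
Normalized CPM of Nqo1 (left) and Txnip (right) with exact Poisson 95% intervals, against the summed normalized CPM of 5 choroid plexus or 5 oligodendrocyte markers, with 1 point per library. Nqo1 and the plexus markers were both lowest in library 1 and highest in library 2 of the 4 h pair, but they did not share an order over the 5 libraries. At 1 h the plexus sum was 1658 against 3934 in the control, and Nqo1 was 5.86 against 5.02. Txnip and the summed oligodendrocyte markers had the same order over the 5 libraries.

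Hmox1 (chr8:75093621-75100589, plus strand) encodes heme oxygenase 1, the inducible enzyme that opens the heme ring and releases iron, carbon monoxide and biliverdin. It was the rarest of the 4 members that passed 2-fold. In the control it had 75 counts, or 3.77 normalized CPM (2.96 to 4.72), followed by 3.87 at 1 h, 19.6 in library 1, 13.9 in library 2 and 11.9 after 8 h. Control and 1 h could not be separated, nor could 8 h and library 2. Its ratios to the control were 1.03 (0.728 to 1.44) after 1 h, 5.20 in library 1, 3.69 in library 2 and 3.15 (2.41 to 4.16) after 8 h. Fitted log2 fold changes were 0.04 ± 0.40 after 1 h, 2.12 ± 0.37 after 4 h (edgeR quasi-likelihood adjusted p = 0.254, from 5.09e-06 to 0.496 in the alternatives) and 1.63 ± 0.40 after 8 h (adjusted p = 0.885). Between 4 h and 8 h the difference was -0.49 ± 0.33, the smallest of these 4 members, at an adjusted p of 0.709 in the same test. All 5 blood markers were highest in library 1, as Hmox1 was, and none was at 0. Their sum was 237 in library 1, 182 at 8 h, 150 in library 2, 135 in the control and 113 at 1 h, and their part in the Hmox1 values was not tested. Without library 1 the Hmox1 log2 fold change at 4 h was 1.86, and without library 2 it was 2.35.

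Of the 7 further genes of heme and iron handling, among them the constitutive Hmox2, the biliverdin reductases Blvra and Blvrb, the ferritin chains Fth1 and Ftl1, the iron exporter Slc40a1 and the transferrin receptor Tfrc, 0 were 2-fold from the control in both 4 h libraries, at 1 h or at 8 h, and 0 were called by the edgeR quasi-likelihood test, with 2 at an unadjusted p below 0.05 at 4 h. The list's median log2 fold change at 4 h was 0.06. Closest to the threshold was Blvrb, named after its values were seen. It had 6.18 normalized CPM in the control, 8.19 at 1 h, 35.2 in library 1 and 12.3 in library 2, with the same order of the 5 libraries as Hmox1 and with ratios to the control of 5.69 (4.68 to 6.97) in library 1 and 1.99 in library 2. Its log2 fold change at 4 h was 1.92 ± 0.67, with an edgeR quasi-likelihood adjusted p of 0.395. The other of the 2 genes at an unadjusted p below 0.05 was Tfrc, also named after its values were seen. Tfrc was at 1.61 and 1.72 times the control in libraries 1 and 2. The log2 fold change of Tfrc at 4 h was 0.73 ± 0.17 (adjusted p = 0.288 in the same test).

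Nqo1, the quinone reductase often used as a readout of NRF2 (chr8:107388225-107403206, minus strand), gave no common direction at 4 h. Its levels were 5.02 normalized CPM in the control, 5.86 at 1 h, 2.55 (1.85 to 3.44) in library 1, 8.94 (7.64 to 10.4) in library 2 and 5.08 at 8 h. Library 1 was thus 0.286 of library 2 (0.20 to 0.401), the widest gap within the pair among the 10 genes. The control, 1 h and 8 h libraries overlapped. All 5 choroid plexus markers were likewise lowest in library 1 and highest in library 2, but 0 had the order of Nqo1 over all 5 libraries. At 1 h their sum was 1658 normalized CPM against 3934 in the control. Nqo1 was then at 1.17 (0.877 to 1.55) times the control. All 5 oligodendrocyte markers were also highest in library 2, and 0 of them lowest in library 1. The part of these cell types in the Nqo1 values was not tested. The log2 fold change at 4 h was 0.19 ± 0.73, became 0.82 without library 1 and -0.94 without library 2, and so has no direction here.

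Neither subunit of the enzyme that starts glutathione synthesis reached 2-fold in any library. Gclc (chr9:77754535-77794485, plus strand) encodes the catalytic subunit of glutamate-cysteine ligase, the rate-limiting enzyme of the pathway. It had 57.9 normalized CPM in the control, 66.0 at 1 h, 70.6 in library 1, 72.2 in library 2 and 57.3 after 8 h. Both 4 h libraries lay above the control with separate intervals, at ratios of 1.22 (1.12 to 1.32) and 1.25 (1.15 to 1.35), and 8 h was back at 0.990. The log2 fold change of Gclc at 4 h was 0.30 ± 0.17, with an edgeR quasi-likelihood adjusted p of 0.552.

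Gclm (chr3:122245557-122270732, plus strand), the modifier subunit that raises the affinity of the ligase, stayed between 37.4 and 44.7 normalized CPM. It had 39.3 in the control, 40.5 after 1 h, 44.7 in library 1, 41.3 in library 2 and 37.4 after 8 h, and neighbours in the order of levels all overlapped. Its fitted log2 fold changes were 0.04 ± 0.23, 0.13 ± 0.20 and -0.07 ± 0.23.

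Slc7a11 (chr3:49892526-50443614, minus strand) encodes xCT, the antiporter that brings cystine into the cell in exchange for glutamate. Its levels were 77.6 normalized CPM in the control, 78.4 at 1 h, 132.6 in library 1, 71.3 in library 2 and 68.2 at 8 h. Only library 1 departed upward, at 1.71 times the control (1.60 to 1.82), while library 2 was at 0.919 (0.854 to 0.989). The log2 fold change at 4 h was 0.39 ± 0.38, but -0.12 without library 1 and 0.78 without library 2, so the pair did not share a direction. The sum of 7 neuron markers had the same order of libraries as Slc7a11 (3482 at 8 h, 3790 in library 2, 3911 in the control, 4112 at 1 h and 4220 in library 1), with 1 of the 7 in that order singly and none at 0. The order was not kept without Gad1 or without Syt1. All 5 blood markers and 6 of the 7 astrocyte markers were highest in library 1, as Slc7a11 was. So were 3 neuron, 2 endothelial and 1 microglial marker. Of the 5 endothelial markers, 1 had the order of Slc7a11, namely Flt1, named after its values were seen. Flt1 was at 1.75 times the control in library 1 and 0.959 in library 2. The part of these cell types in the Slc7a11 values was not tested. Its heavy-chain partner Slc3a2 had 86.8 in the control, 105 at 1 h, 152.8 in library 1, 126.3 in library 2 and 88.9 after 8 h, without reaching 2-fold.

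Of the 15 further glutathione genes, 1 was at least 2-fold higher in both 4 h libraries, and 0 at 1 h or 8 h. This was Chac1, a stress-induced enzyme that degrades glutathione, with 4.97 normalized CPM in the control, 4.72 at 1 h, 12.8 in library 1, 11.7 in library 2 and 7.25 after 8 h. The list's median log2 fold change at 4 h was -0.07, and none of its genes was called by the edgeR quasi-likelihood test, with 2 at an unadjusted p below 0.05.

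**Figure D3:**
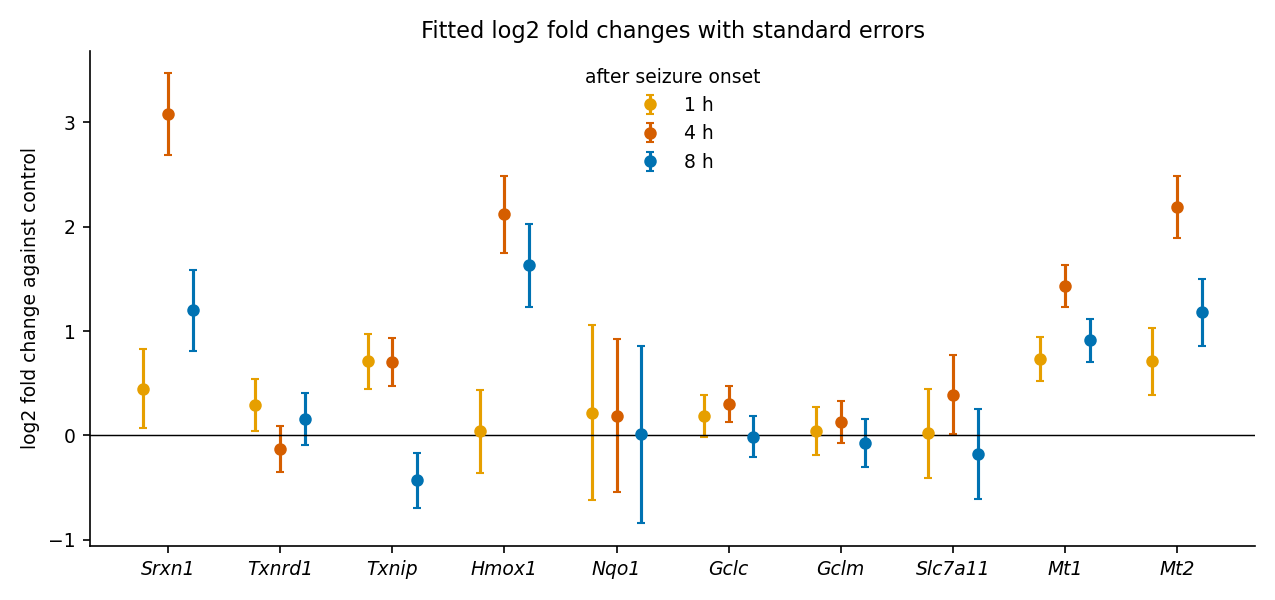
Fitted log2 fold changes against the control (y axis) for the 10 genes at 1 h, 4 h and 8 h, with bars of 1 SE from the edgeR quasi-likelihood fit, in which the spread came from the 4 h pair. Srxn1 reached 3.08 at 4 h and Txnip crossed from 0.70 at 4 h to -0.43 at 8 h.

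At 1 h the metallothioneins and Txnip had the highest ratios to the control among the 10 genes. Mt1 (chr8:94179082-94180327) and Mt2 (chr8:94172664-94173568) lie next to each other on the plus strand. Mt1 had 138.9 normalized CPM in the control, 229.8 at 1 h, 410.7 in library 1, 339.9 in library 2 and 260.3 after 8 h. Mt2 had 40.3 in the control, 66.1 at 1 h, 221.1 in library 1, 147.3 in library 2 and 91.2 after 8 h. For both genes all 5 intervals were separate and the order was control, 1 h, 8 h and the 4 h pair, as for Srxn1.

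At 1 h both genes stood at nearly one ratio to the control, 1.65 (1.58 to 1.74) for Mt1 and 1.64 (1.5 to 1.80) for Mt2. At 4 h Mt2 was further from the control than Mt1 in each library, 5.49 and 3.66 times the control against 2.96 and 2.45. At 8 h the ratios were 2.27 for Mt2 and 1.87 for Mt1. The log2 fold changes of Mt1 were 0.73 ± 0.21, 1.43 ± 0.20 and 0.91 ± 0.21, and those of Mt2 were 0.71 ± 0.32, 2.19 ± 0.30 and 1.18 ± 0.32. At 4 h both had an adjusted p of 0.242 in the edgeR quasi-likelihood test, with 6.48e-10 to 1.0 for Mt1 and 5.3e-19 to 0.427 for Mt2 in the alternatives. At 8 h the adjusted p was 0.885 for Mt1 and 0.965 for Mt2. With no filter on low counts, edgeR called Srxn1, Hmox1, Mt1 and Mt2 also at 8 h (0.852% of genes called), and with an assumed coefficient of variation of 0.2 it called Hmox1 alone (0.931%).

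Within a library the ratio of Mt1 to Mt2 counts needs no scaling. It was 3.45 (3.19 to 3.74, exact binomial) in the control and 3.48 (3.26 to 3.71) at 1 h, then 1.86 (1.78 to 1.93) in library 1, 2.31 (2.21 to 2.41) in library 2 and 2.86 (2.70 to 3.02) after 8 h. The control and 1 h overlapped, and both 4 h libraries and the 8 h library lay below them. In the annotation, 73.5% of the exon length of Mt2 lies under exons of Gm45774 on the opposite strand. The libraries were stranded, but the strand setting of the counting is not given in the sources used here. Gm45774 had 10, 15, 22, 19 and 13 counts in the same library order, against 801 to 3723 for Mt2.

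Per kilobase of annotated exon, the normalized CPM of Mt1 was 111 in the control and that of Mt2 was 68.4, and at 4 h they were 330 and 376 in library 1 and 273 and 251 in library 2. These lengths, 1246 bases for Mt1 and 588 for Mt2, unite all annotated transcripts, so the comparison between the genes shifts with the transcripts counted. For Mt1 the united length covers the whole gene, introns of the coding transcript included, and for Mt2 it does not. The order of the 2 genes can therefore not be read from these values. Mt3 (chr8:94152607-94154146), the neighbouring brain metallothionein, did not share the course: it had 113.9 normalized CPM in the control, 116.6 at 1 h, 106.1 in library 1, 122.4 in library 2 and 121.1 after 8 h, with a log2 fold change of 0.00 at 4 h (edgeR quasi-likelihood adjusted p = 0.994). Mt4, a form of squamous epithelia, had 0 counts in every library, where a floor of 3 counts per library corresponds to 0.151 to 0.178 normalized CPM.

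Astrocytes are the main source of Mt1 and Mt2 in brain, and their markers had the same order of libraries in sum only with Gfap included: 7 markers totalled 1825 normalized CPM in the control, 1930 at 1 h, 2155 at 8 h, 2346 in library 2 and 2508 in library 1, and 2 of the 7 followed that order singly, with none at 0. Of these markers only Gfap, an intermediate filament raised in reactive astrocytes, was 2-fold higher at 4 h and 8 h. Its ratios to the control were 2.70 and 2.31 in the 4 h pair and 2.66 after 8 h. Without Gfap, a sum made after the data were seen, the other astrocyte markers totalled 1604 in the control, 1658 at 1 h, 1912 in library 1, 1836 in library 2 and 1568 at 8 h, and the order was no longer shared. At 8 h 3 of the 7 were below the control, Gja1 at 0.507 of it, Aqp4 at 0.965 and Aldoc at 0.979. Srxn1 and Hmox1 had the order of the sum with Gfap, and so did Prox1 among the neuron markers (59.99 in the control, 67.2 at 1 h, 77.1 at 8 h, 119.7 in library 2 and 171.6 in library 1). The 5 blood markers were highest in library 1, as were Srxn1, Hmox1, Mt1 and Mt2, and 2 of the 5 endothelial markers were, Flt1 and Cdh5 at 1.75 and 3.40 times the control. The other endothelial markers were highest at 8 h. In library 1, Pecam1 was at 1.75 times the control, Kdr at 0.657 and Cldn5 at 0.975. The part of any of these cell types in the 4 genes was not tested.

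**Figure D4:**
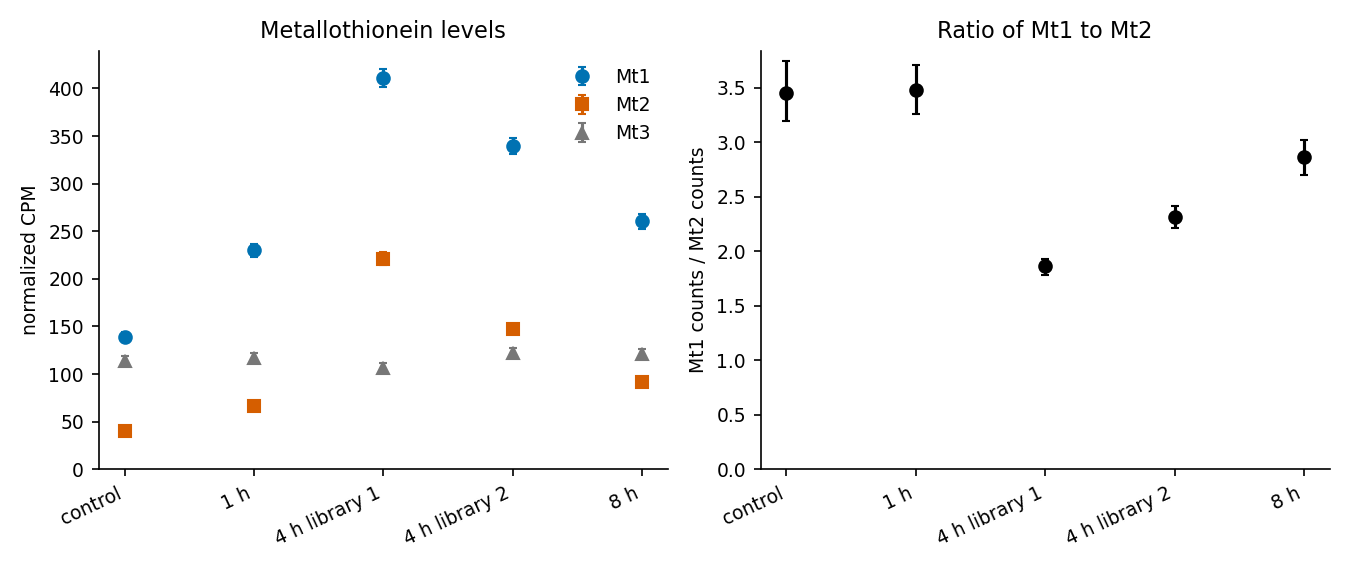
Left, normalized CPM of Mt1, Mt2 and Mt3 in each library with exact Poisson 95% intervals. Right, the ratio of Mt1 to Mt2 counts with exact binomial 95% intervals, which went from 3.45 in the control to 1.86 and 2.31 at 4 h while Mt3 stayed between 106.1 and 122.4.

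Further genes of the same pathways were examined in 7 lists of 64 genes in all, of which 63 passed the filter. At least 2-fold higher were 3 of them after 1 h, 4 in both 4 h libraries and 1 after 8 h, when 1 was 2-fold lower. These are 4.76%, 6.35% and 1.59% of the 63 beside 5.41%, 4.96% and 6.79% of all tested genes, and 1.59% lower beside 3.37%. At 4 h a further 6 genes were past 2-fold in library 1 alone and 0 in library 2 alone. The edgeR quasi-likelihood test called 0 at each time. At an unadjusted p below 0.05 there were 4 at 1 h (6.35%, beside 2.42% of all tested genes), 18 at 4 h (28.6%, beside 11.6%) and 2 at 8 h (3.17%, beside 4.51%).

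Of the 10 NRF2 regulators, 2 were past 2-fold after 1 h, 3 after 4 h and 1 after 8 h, all upward, and the list's median log2 fold change at 4 h was 0.32. Nfe2l2, which encodes NRF2, stayed at 18.5 to 23.0 normalized CPM. Its inhibitor Keap1 had 61.5 in the control, 54.2 at 1 h, 35.2 in library 1, 46.4 in library 2 and 49.4 after 8 h, lower in every seizure library, though not by 2-fold. Bach1, the repressor that competes for the same elements, had 19.9 in the control, 27.5 at 1 h, 71.98 in library 1, 49.6 in library 2 and 26.9 after 8 h. The small MAFs Mafk and Maff were about level at 1 h and in library 1, with overlapping intervals, and lower in library 2 and at 8 h. Mafk had 9.20 in the control, 29.5 at 1 h, 28.8 in library 1, 20.3 in library 2 and 13.1 after 8 h. Maff went from 13 counts in the control (0.653 normalized CPM) to 23.4 normalized CPM at 1 h, 21.7 in library 1, 6.14 in library 2 and 2.28 after 8 h. At 4 h the log2 fold changes were 1.61 for Bach1, 1.40 for Mafk and 4.20 for Maff, with edgeR quasi-likelihood adjusted p values of 0.259, 0.288 and 0.288.

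Among 9 genes of metal handling, Mtf1, which encodes the zinc-sensing activator of Mt1 and Mt2, had 33.0 normalized CPM in the control, 35.7 at 1 h, 50.5 in library 1, 42.9 in library 2 and 30.4 after 8 h. One gene of this list was past 2-fold at 8 h: the transporter Slc30a10, which exports manganese, had 16.8 in the control, 14.6 at 1 h, 8.02 in library 1, 10.4 in library 2 and 8.16 after 8 h, lower in every seizure library. The zinc exporter Slc30a1, named after its values were seen, had 39.5 in the control, 51.6 at 1 h, 97.4 in library 1, 72.6 in library 2 and 36.6 after 8 h, at 2.46 and 1.84 times the control in the 4 h libraries, and its log2 fold change at 4 h was 1.10 ± 0.25 (edgeR quasi-likelihood adjusted p = 0.288). The list's median log2 fold change at 4 h was -0.16, and 4 of its genes had an unadjusted p below 0.05. Superoxide and peroxide enzymes (5 genes) had none past 2-fold at 1 h, in both 4 h libraries or at 8 h, although Sod3, named after its values were seen, was at 0.417 of the control in library 1 (18 counts), and a median of -0.18, with the mitochondrial dismutase Sod2 at 222.8 in the control and 195 and 199.6 at 4 h. Of 6 genes around Txnip, the glucose transporter Slc2a1 was past 2-fold at 1 h and in library 1, but not in library 2: it had 58.8 in the control, 159.9 at 1 h, 134.5 in library 1, 96.6 in library 2 and 46.7 after 8 h. Like Txnip, Slc2a1 was above the control at 1 h and 4 h and below it at 8 h.

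**Figure D5:**
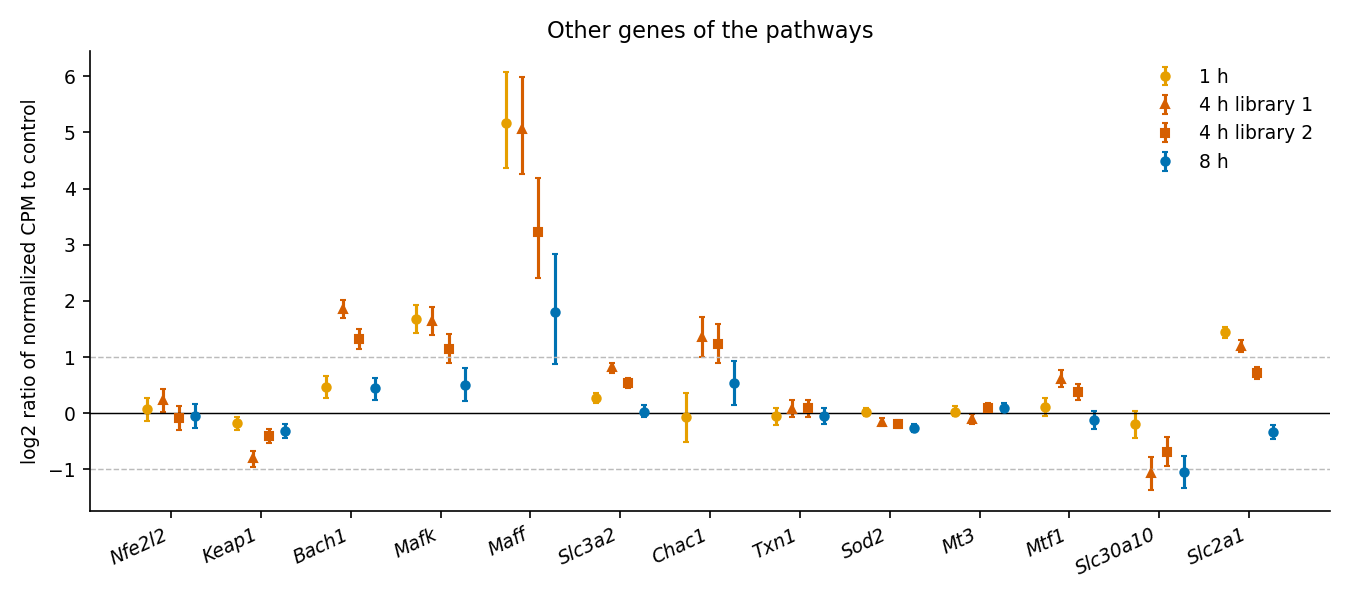
Log2 ratios of normalized CPM to the control for 13 other genes of the pathways in the 4 seizure libraries, with exact binomial 95% intervals for counting error and dashed lines at 2-fold. Maff was past 2-fold upward at 1 h, 4 h and 8 h, Mafk at 1 h and 4 h, and Bach1 and Chac1 at 4 h. Slc2a1 was past 2-fold upward at 1 h and in 4 h library 1, and Slc30a10 downward at 8 h and in 4 h library 1. Nfe2l2, Txn1, Sod2 and Mt3 stayed within 2-fold throughout.

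Other genes with the most similar courses were sought for the 4 members past 2-fold, by the root mean square difference of log2 ratios to the control over the 4 seizure libraries, among 16210 genes with a mean of at least 1 normalized CPM. Nearest to Srxn1 were Mir670hg (0.127), Slco5a1 (0.203) and Gm21860 (0.225). Nearest to Hmox1 were Sox11 (0.116), Aspg (0.187) and Gm44673 (0.199). For Mt1 they were Ppp1r2-ps4 (0.072), Tgif1 (0.088) and Gm9115 (0.089), and for Mt2 Endou (0.075), Nedd9 (0.174) and Nt5c1a (0.191). Several of these have few counts, so their place in the ranking is uncertain. None of them is another member, since members were left out of the search.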

How the data were processed

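Hippocampal total RNA of 5 libraries was measured by stranded, paired-end RNA sequencing. The authors aligned reads with STAR and deposited raw read counts per gene, without normalization. The submitters' processing notes name STAR 2.5.1b, HTSeq and GRCm38.p4. Neither the annotation release nor the strand setting is given in the sources used here. Lines for reads on no gene (24.7% to 33.1%), ambiguous reads (1.26% to 1.52%) and reads aligned more than once (9.67% to 11.6%) were left out of library sizes. Groups came from the labels.

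Counts were fitted in edgeR 4.0.16 (R 4.3.3) for all genes past filterByExpr, with TMM scaling and a quasi-likelihood model of 4 conditions over 5 libraries. There was 1 residual degree of freedom, from the 4 h pair. The common dispersion was 0.0565. P-values were adjusted over 19768 genes by the Benjamini-Hochberg method at 0.05, and log2 fold changes used a prior count of 2. Alternatives were other scalings and filters, DESeq2 1.42.0, limma-voom (limma 3.58.1), assumed dispersions, a smaller prior count and leaving out either 4 h library. The fits were tested on simulated data.

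The members and the gene lists were chosen with earlier results of these data known. All 10 members are named. Of the other pathway genes, Nfe2l2, Keap1, Mt3, Mtf1, Slc3a2, Txn1 and Sod2 are always given, and the rest only with at least 20 counts in a library and a 2-fold difference from the control at 1 h, in both 4 h libraries or at 8 h. Blvrb, Tfrc, Slc30a1, Sod3, Sesn1 and Sesn2, outside this rule, were added after their values were seen. Mt4, with 0 counts, is also given outside this rule. Similar genes are the 3 nearest to each member past 2-fold. Gene positions came from GENCODE M21 (GRCm38), which held 55144 of the 55385 identifiers, and upstream sequences from RefSeq (GRCm38.p6). Intervals are at 95% and cover counting error only.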

Additional observations from a re-analysis of the deposited data

Results flagged for a closer look

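Txnip had opposite directions at different times. Its log2 fold change against the control was 0.71 at 1 h and 0.70 at 4 h but -0.43 at 8 h, and the counting interval of the ratio left out 1 in each of these libraries. The difference between 8 h and 4 h was -1.13 ± 0.24 with an adjusted p of 0.463 in the edgeR quasi-likelihood test, so it did not pass, whereas with no filter on low counts edgeR called it. The difference between 8 h and 1 h was not tested. All 3 comparisons share the single control library.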

How the results depend on the processing

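Numbers of called genes depended on the settings. At 1 h, 4 h, 8 h, 4 h against 1 h and 8 h against 4 h, the quasi-likelihood test called 0, 1, 0, 1 and 0 genes. Scaling by library size alone gave 57, 237, 22, 67 and 120, no filter on low counts 285, 1300, 279, 725 and 957, DESeq2 49, 233, 32, 103 and 132, an assumed coefficient of variation of 0.2 gave 238, 916, 184, 513 and 660, and one of 0.4 gave 40, 81, 12, 33 and 48. At least 10 counts in every library gave 1, 0, 0, 0 and 0, and median-of-ratios scaling and limma-voom gave 0 throughout. The cause was not tested. Library size alone shifted the median log2 fold change of all genes to -0.111 at 4 h and 0.12 at 8 h against 4 h.

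Members past 2-fold numbered 0, 4 and 3 at 1 h, 4 h and 8 h, became 3 at 1 h with a threshold of 1.5-fold and 1 at 8 h with 3-fold, and were 4 to 4 at 4 h without either library. Near-zero log2 fold changes changed sign: with library size alone Hmox1 (-0.03), Gclm (-0.03) and Slc7a11 (-0.06) at 1 h and Gclc (0.00) at 8 h, with at least 10 counts in every library Gclc at 8 h (0.01), and with limma-voom Nqo1 at 4 h (-0.04). With a 4 h library left out, the 4 h values of Txnrd1 (0.04 without library 2), Nqo1 (-0.94 without library 2) and Slc7a11 (-0.12 without library 1) also changed sign. Of 330 such member values, 298 kept their direction and side of the threshold or, where no test was made, moved by less than 1 SE. A further 21 passed the threshold only under the alternative, and 5 moved further without a test, all at 4 h with a library left out. The 6 counted as reversed are the sign changes under another scaling, filter or tool. Of the sign changes with a library left out, Txnrd1 is counted among the 298, and Nqo1 and Slc7a11 among the 5. Part of the 298 could hardly have come out otherwise. A smaller prior count leaves the quasi-likelihood p-values unchanged, and leaving out a 4 h library barely alters the values at 1 h and 8 h. No paired analysis was possible because only the 4 h condition had more than 1 library. With 1 library at the other times, animal-to-animal spread there is unknown.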
